A study of Mus musculus with 16 samples.

Results

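The comparison described here is that of untreated mammary fibroblasts labelled MEKK1-/- with untreated mammary fibroblasts labelled MEKK1+/+. Its members are the 8 samples whose titles give a control culture, 4 of each genotype, out of 16 samples in the series, and all 18132 genes measured on their arrays. The cells were primary cultures from inguinal mammary glands of female 129S6 mice aged 8 to 10 weeks. Both groups were kept for 8 h in DMEM with fetal bovine serum, and the other 8 samples received medium conditioned by MDA-MB-231 breast cancer cells (CM) instead. The study asked which secreted factors of fibroblasts depend on MEKK1. Cells came from 3 mice per genotype and each group holds 4 cultures, so at least 2 cultures of a group share a mouse, and the mouse behind each culture is not named. The p-values below therefore measure the spread between cultures. The glands were digested with collagenase and hyaluronidase, fat was removed and the epithelial pellet was discarded, and no sort for fibroblasts is described. RNA was hybridised to Illumina mouse bead arrays, and every value below is a log2 intensity after quantile normalization unless another scale is named.

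MEKK1, the product of Map3k1, is a MAP3 kinase. Such kinases phosphorylate MAP2 kinases, which in turn phosphorylate MAP kinases such as JNK, ERK and p38, and these act on transcription factors including the AP-1 family. Fibroblasts of the mammary gland build the collagen-rich stroma around the ducts and secrete growth factors, proteases and chemokines. The gland also holds macrophages, endothelial cells, fat cells and epithelial cells, which can be carried into a primary culture.

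Olfactory receptor genes, which mammary cells are not known to use, gave the level that a probe without signal reaches. The 99th percentile of the 1075 olfactory receptor rows lay between 7.21 and 7.30 on the 8 arrays. A gene was counted as above this level when all 4 arrays of at least 1 group exceeded it, which 7833 genes did. Of these, 7221 exceeded it on all 8 arrays, and 8670 genes exceeded it on no untreated array. The deposited array medians ran from 114 to 167 intensity units in MEKK1+/+ and from 128 to 159 in MEKK1-/-.

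MAP3K1, the gene that encodes MEKK1, was not lower in the cultures labelled MEKK1-/-. It read 7.95, 7.77, 7.6 and 7.51 in MEKK1+/+ replicates 1 to 4, and 8.06, 8.31, 8.17 and 8.41 in MEKK1-/- replicates 1 to 4. All 4 arrays labelled MEKK1-/- lay above all 4 labelled MEKK1+/+, by 0.53 ± 0.15 (SE) on the log2 scale or 1.44-fold (exact permutation p = 0.0286, limma adjusted p = 0.465). Where the probe lies relative to the disrupted part of the gene is not given in the sources used here, so this reading is no check of the genotype. For that reason the groups are named by their labels throughout. Of the 40 measured genes nearest to Map3k1 in RefSeq order, 22 were higher and 18 lower in MEKK1-/-, and 5 had an unadjusted p under 0.05, 4 of them higher. Over all genes the shares at that p were 4.92% for higher and 4.35% for lower genes.

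The arrays numbered 2 stood apart from their groups. Across genes, MEKK1+/+ replicate 2 had a mean correlation of 0.985 with its own group and 0.991 with the other, and MEKK1-/- replicate 2 had 0.986 and 0.991. MEKK1+/+ replicate 2 was most like MEKK1-/- replicate 3 (r = 0.994), and MEKK1-/- replicate 2 was most like MEKK1+/+ replicate 3 (r = 0.995). The deposited values gave the same best matches. Some genes, among them MAP3K1 and POU6F1 described below, separated the groups on all 8 arrays. Of 18132 genes 470 did so as higher (2.59%) and 365 as lower (2.01%), which is no check of the labels. Whether the labels of the 2 arrays are right was not tested. A fit without the 2 arrays is given below for the counts and for some genes and lists, not for every result. It is a description, because they were singled out from these values.

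**Figure D1:**
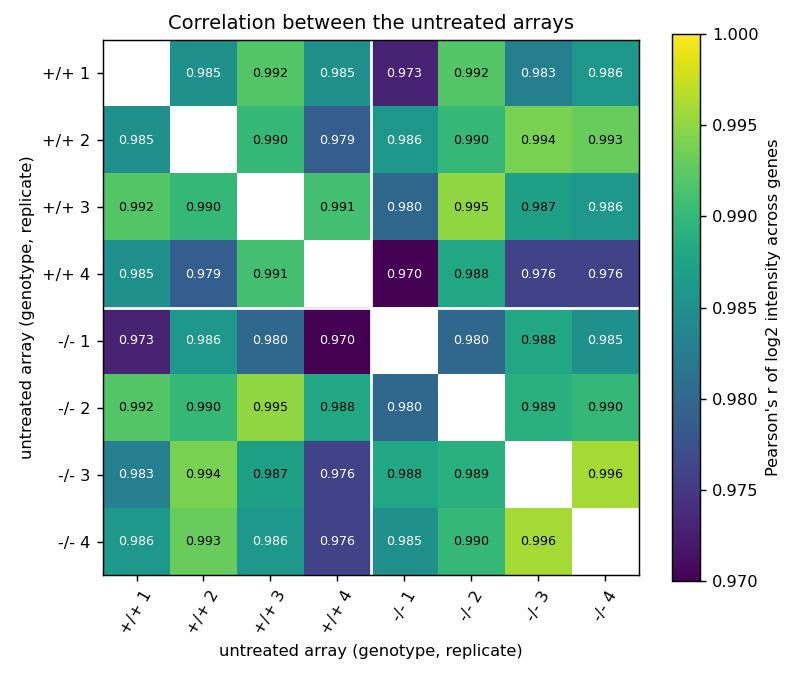
Pearson's r across 18132 genes between the log2 intensities of each pair of the 8 untreated arrays, ordered by genotype and replicate, with the genotypes divided by white lines. The highest value is 0.996, between MEKK1-/- replicates 3 and 4, the lowest is 0.970, and the arrays numbered 2 are brighter against the other genotype than against their own.

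No gene passed the test over all genes. The smallest adjusted p was 0.401 (limma with Benjamini-Hochberg adjustment), so the share called was 0% of 18132 genes. At an unadjusted p under 0.05, 892 genes were higher in MEKK1-/- (4.92%) and 788 were lower (4.35%). The deposited values gave 65 higher and 746 lower at that p, and arrays set to 1 common median 829 and 2341. In 470 genes all 4 MEKK1-/- arrays lay above all 4 MEKK1+/+ arrays (2.59%), and in 365 all 4 lay below (2.01%). Among the 7833 genes above the olfactory receptor level these numbers were 241 (3.08%) and 159 (2.03%). For any gene whose groups do not overlap, the exact 2-sided permutation p over the 70 ways of dividing 8 arrays is 0.0286, the smallest this design allows. The directions below are therefore differences of means that did not pass the test over all genes.

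The scale matters for small differences. Quantile normalization gave a median difference of 0.02 over the 7833 genes above the level, while the deposited values gave -0.17 and arrays set to 1 common median gave -0.19. Over all 18132 genes the deposited values gave a median of 0. Where a list median or gene difference printed below for the fit over all arrays turns direction on the deposited scale, the deposited value is given too.

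The gene with the smallest p was POU6F1, a transcription factor with a POU domain. It read 6.77, 7.01, 6.69 and 6.81 in MEKK1+/+ replicates 1 to 4, each below the level without signal, and 7.52, 8.05, 8.31 and 8.31 in MEKK1-/-, each above that level. The groups were separated with the arrays numbered 2 in place. The measured means differed by 1.23 ± 0.20 (limma adjusted p = 0.401), and by 1.23 on the deposited scale too. With the MEKK1+/+ arrays set to the olfactory receptor level, POU6F1 was at least 1.76-fold higher in MEKK1-/-.

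The other 11 genes with the largest differences among those higher on all 4 MEKK1-/- arrays included markers of endothelium. ESAM, an adhesion molecule of endothelial junctions, averaged 7.30 ± 0.29 (SD, n = 4) in MEKK1+/+ and 8.15 ± 0.71 in MEKK1-/-, where replicate 1 reached 9.20 and the others lay between 7.65 and 7.89. CLDN5, the claudin of endothelial tight junctions, averaged 7.30 ± 0.27 and 7.95 ± 0.31. In both genes the nearest arrays of the groups were close, 7.64 against 7.65 in ESAM and 7.54 against 7.74 in CLDN5.

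CYGB, a haem protein of fibroblast-lineage cells, was higher by 0.81 ± 0.24, and the growth factor IGF2 by 0.80 ± 0.31. The MEKK1+/+ arrays spread widely in both, from 9.62 to 10.92 in CYGB and from 8.35 to 9.68 in IGF2. KIF23, a kinesin of the dividing cell, was higher by 0.72 ± 0.20. TCOF1, which encodes the nucleolar protein treacle, was higher by 0.72 ± 0.25, and CD3EAP, a subunit of RNA polymerase I, by 0.68 ± 0.16. PCOLCE2, an enhancer of procollagen processing, was higher by 0.71 ± 0.19, and the transcriptional repressor BACH2 by 0.71 ± 0.17. MNS1, a coiled-coil protein of cilia, and D10ERTD322E, an older symbol of the mitochondrial ribosomal protein gene Mrpl42, were higher by 0.64 ± 0.19 and 0.61 ± 0.15. These 11 genes had adjusted p between 0.465 and 0.500.

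The 11 genes described with the largest differences in the other direction included LMO2 and LPXN, genes of blood-derived cells. TNFAIP8, a gene induced by TNF, was lower by 0.96 ± 0.20, with 9.76, 8.83, 9.21 and 9.45 in MEKK1+/+ and 8.08, 8.72, 8.20 and 8.42 in MEKK1-/-. LMO2, a cofactor of blood cell transcription, was lower by 0.87 ± 0.23, and LPXN, an adhesion adaptor of leukocytes, by 0.77 ± 0.19. LTC4S, the enzyme that makes leukotriene C4, was lower by 0.69 ± 0.23. For TNFAIP8, LPXN, SDSL and HIF1A the 2 arrays numbered 2 were the nearest to each other across the gap between the groups, 8.83 against 8.72 in TNFAIP8, so that these groups just failed to overlap.

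The other 7 genes were of varied function. HIF1A, the oxygen-regulated transcription factor, was lower by 0.57 ± 0.16 and MLKL, which carries out necroptosis, by 0.47 ± 0.16. BET1L, a Golgi SNARE, was lower by 0.53 ± 0.11 and PCYOX1, a prenylcysteine oxidase, by 0.52 ± 0.15. SDSL, a serine dehydratase-like enzyme, was lower by 0.60 ± 0.19. In NOPE (now Igdcc4) and the membrane protein MXRA8, MEKK1-/- replicate 1 lay far below the rest, at 8.00 against 8.91 to 9.09 and at 9.77 against 10.65 to 10.82. The 11 lower genes had adjusted p between 0.465 and 0.520.

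**Figure D2:**
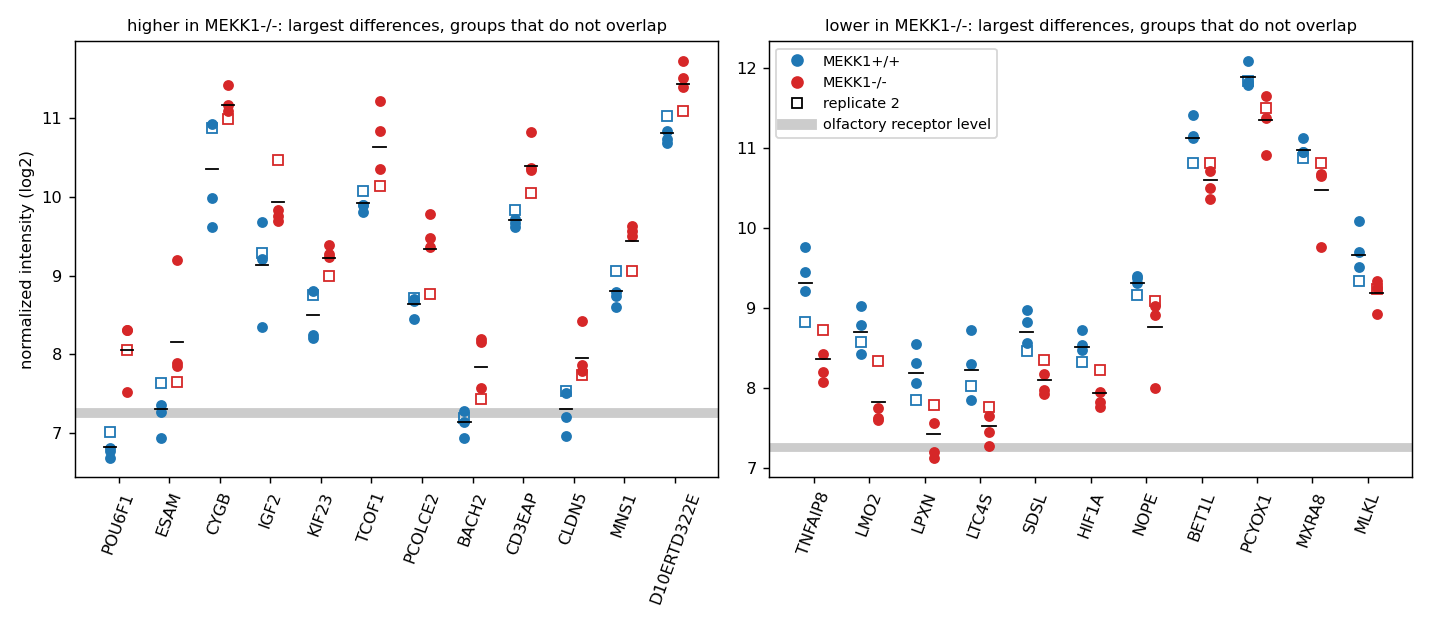
Normalized log2 intensity on each untreated array of the 12 higher and 11 lower genes described, from those with the largest differences among genes above the olfactory receptor level whose groups do not overlap. Blue marks are MEKK1+/+ and red marks MEKK1-/-, open squares are replicate 2, black lines are group means and the grey band is the olfactory receptor level. In many genes the squares of the groups lie next to each other, while POU6F1 is below the band on all 4 MEKK1+/+ arrays and above it on all 4 MEKK1-/- arrays.

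Few genes crossed the olfactory receptor level completely. POU6F1, MMRN2 and 1 RIKEN cDNA gene were above it on all 4 MEKK1-/- arrays and on no MEKK1+/+ array, and 12 genes showed the opposite. With at most 1 array of the lower group allowed above the level, 20 genes belonged to MEKK1-/- and 67 to MEKK1+/+. These were 20 of the 7410 genes above the level on all 4 MEKK1-/- arrays and 67 of the 7644 for MEKK1+/+. The level ran from 7.21 to 7.25 on MEKK1+/+ arrays and from 7.24 to 7.30 on MEKK1-/- arrays, so the counts are not on equal terms. The 67 also held genes close to the level, such as LOC100045413 (difference -0.01), and the olfactory receptor rows OLFR924 and OLFR1219. The genes named next from these sets were chosen after their values were seen.

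The 67 genes included genes of macrophages and of the interferon response. AIF1, a calcium-binding protein of macrophages, read between 7.31 and 7.79 in MEKK1+/+ and between 6.96 and 7.11 in MEKK1-/-. PLEK, PTPN6 and FYB, which act in leukocyte signalling, were lower by 0.90 ± 0.40, 0.89 ± 0.26 and 0.86 ± 0.23. IRF7, a transcription factor of the interferon response, was lower by 1.24 ± 0.47, with MEKK1+/+ replicate 4 at 9.58 and replicate 2 at 7.26. The 20 genes included endothelial ones. MMRN2, a matrix protein of vessels, read between 6.83 and 7.18 in MEKK1+/+ and between 7.24 and 7.97 in MEKK1-/-. ACVRL1, a receptor of endothelial cells for BMP ligands, read between 6.97 and 7.28 and between 7.50 and 7.70, so its groups did not overlap. ESM1, also a gene of endothelium, and HEY1 were higher by 0.61 ± 0.26 and 0.68 ± 0.25. In both genes MEKK1+/+ replicate 2 (7.33 and 7.82) lay above MEKK1-/- replicate 2 (7.28 and 7.27). With the mean of the macrophage markers described below as a covariate, HEY1 was at 0.2 and ESM1 at 0.49.

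The labelled cell type was borne out by its markers. The 15 fibroblast markers had a mean of 11.41 ± 0.05 in MEKK1+/+ and 11.47 ± 0.07 in MEKK1-/- (SD, n = 4), and their summed intensity ran from 104000 to 116000 and from 103000 to 113000. COL1A1, the main chain of fibrillar collagen, averaged 14.34 ± 0.27 and 14.32 ± 0.15. THY1, a surface marker of fibroblasts, averaged 14.65 ± 0.07 and 14.74 ± 0.07, a difference that turned to -0.01 on the deposited scale. COL1A2 and PDGFRA, the second chain of that collagen and a growth factor receptor of fibroblasts, differed by 0.09 ± 0.15 and -0.27 ± 0.23, and COL1A2 turned to -0.19 on the deposited scale. The median difference of the list was 0.04, with 8 genes higher, of which 3 had an unadjusted p under 0.05, and 7 lower, while on the deposited scale the median was -0.18, near that of all genes above the level.

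Markers of macrophages moved with the label. The 22 macrophage markers averaged 9.44, 8.47, 9.21 and 8.92 in MEKK1+/+ replicates 1 to 4, and 8.34, 8.96, 7.80 and 7.85 in MEKK1-/-. The groups overlapped through the arrays numbered 2, the lowest of MEKK1+/+ and the highest of MEKK1-/-. The summed intensity of the list ran from 16300 to 49000 in MEKK1+/+ and from 7260 to 32000 in MEKK1-/-, with 18 to 19 and 13 to 18 markers above the olfactory receptor level. Of the 22 markers 20 were lower, 12 of them at an unadjusted p under 0.05 against 4.35% of all genes, and the median difference was -0.76. In bulk RNA, fewer cells of a type and less RNA per cell cannot be told apart.

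EMR1 (now Adgre1), a surface receptor that marks mouse macrophages, read 10.05, 7.65, 9.49 and 10.23 in MEKK1+/+ and 7.4, 9.27, 7.10 and 7.38 in MEKK1-/-. Each group thus held 1 array, replicate 2, at the level of the other. The difference was -1.57 ± 0.58 (adjusted p = 0.498). CD14, the co-receptor for bacterial lipopolysaccharide, was lower by 2.05 ± 0.76. CSF1R, the receptor for the macrophage growth factor, was lower by 0.82 ± 0.29, the lysosomal marker CD68 by 0.87 ± 0.35 and the adaptor TYROBP by 0.74 ± 0.39. C1QB, a chain of the complement component C1q, was lower by 1.45 ± 0.54. LYZ2, the lysozyme of macrophages, averaged 13.53 ± 0.96 in MEKK1+/+ and 12.08 ± 1.43 in MEKK1-/-. CSF1R, CD68, TYROBP and LYZ2 were above the olfactory receptor level on all 8 arrays, so macrophage markers were measured in every culture.

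Markers of epithelium lay the other way, mostly through 1 array. The 17 epithelial markers averaged between 6.99 and 7.06 on the 4 MEKK1+/+ arrays, and 8.62, 7.02, 7.31 and 7.27 on MEKK1-/- replicates 1 to 4. Only on MEKK1-/- replicate 1 were 12 of them above the olfactory receptor level, against 4 on each MEKK1+/+ array. KRT14, a keratin of basal epithelium, read 6.80 to 7.03 in MEKK1+/+ and 11.90, 6.84, 7.95 and 7.78 in MEKK1-/-, and KRT8, a keratin of luminal epithelium, 7.35 to 7.71 and 11.82, 7.46, 8.62 and 8.52. Thus 3 of the 4 MEKK1-/- cultures held keratin RNA above MEKK1+/+, and replicate 2 did not. The measured differences were 1.71 ± 0.97 and 1.64 ± 0.87 (adjusted p = 0.596 and 0.572), where KRT14 was below the olfactory receptor level on all 4 MEKK1+/+ arrays, and no epithelial marker had an unadjusted p under 0.05.

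The 12 endothelial markers averaged 7.18 to 7.36 in MEKK1+/+ and 7.94, 7.39, 7.48 and 7.45 in MEKK1-/-, so their means did not overlap. Of them 11 were higher, 5 at an unadjusted p under 0.05 against 4.92% of all genes, with a median difference of 0.26. EMCN, a sialomucin of endothelium, was higher by 0.77 ± 0.32 and EGFL7, a protein endothelial cells secrete, by 0.35 ± 0.21. Lymphocyte markers lay at the olfactory receptor level in both groups, with at most 2 of 11 above it, and at most 2 of 8 neutrophil markers were. LPL, the lipoprotein lipase of fat cells, was lower by 0.64 ± 0.33, and the fat cell list had a median of 0.05. In the skeletal muscle list MYLPF and ACTA1 were higher by 0.82 ± 0.35 and 0.64 ± 0.41. Among pericyte and smooth muscle markers PDGFRB, which also stands in the fibroblast list, and MCAM were higher by 0.37 ± 0.14 and 0.34 ± 0.17. None of these passed the test over all genes.

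**Figure D3:**
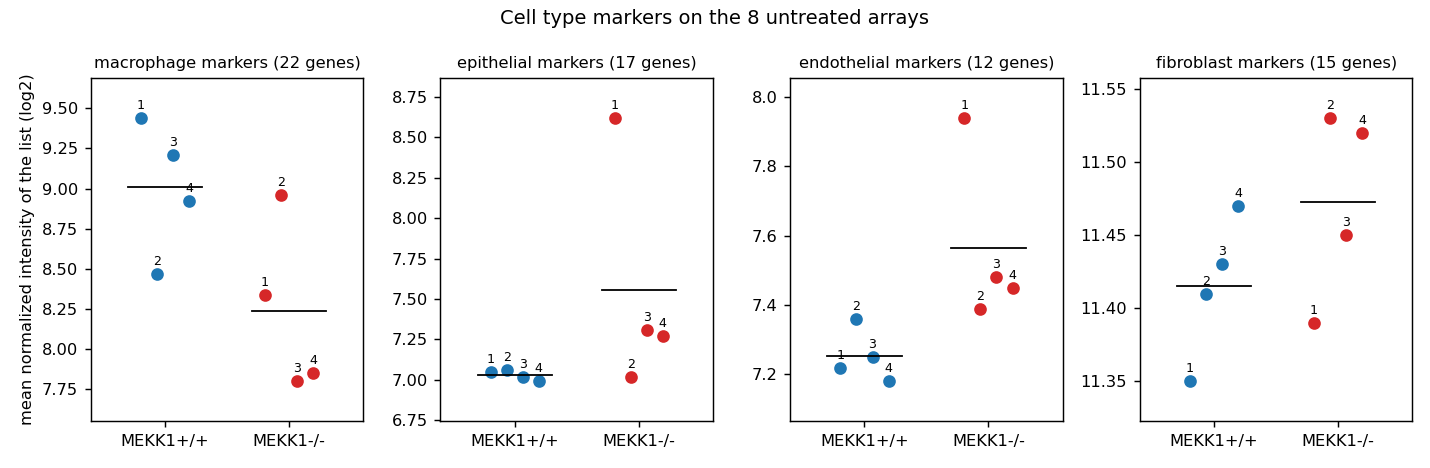
Mean normalized log2 intensity of 4 lists of cell type markers on each untreated array, with the replicate number beside each point and black lines at the group means. Macrophage markers are lower on 3 MEKK1-/- arrays, with each array numbered 2 nearer the other genotype, epithelial and endothelial markers are highest on MEKK1-/- replicate 1, and the fibroblast means differ least, at 11.41 ± 0.05 and 11.47 ± 0.07.

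The CC chemokines that the study names had lower means in MEKK1-/-, and which cells made their RNA was not measured. CCL3 and CCL4, which attract leukocytes through shared receptors, were both lower by 2.54 in measured means (SE 1.03 and 0.98). All 4 MEKK1+/+ arrays were above the olfactory receptor level in both, against 2 MEKK1-/- arrays in CCL3 and 3 in CCL4. CCL3 read 11.29, 7.43, 11.66 and 12.40 in MEKK1+/+ and 8.16, 10.73, 6.87 and 6.87 in MEKK1-/-, so the values of the arrays numbered 2 lay on the side of the other genotype here too. CCL5, an attractant of T cells and monocytes, was lower by 1.56 ± 0.51, with 9.15, 7.64, 9.63 and 9.86 against 7.92, 8.37, 6.84 and 6.92. CCL6 was lower by 1.33 ± 0.71, with 10.54, 7.86, 10.24 and 9.82 against 8.87, 9.66, 7.31 and 7.31. Their adjusted p ran from 0.465 for CCL5 to 0.574 for CCL6, and the arrays numbered 2 behaved as they did for the macrophage markers. Of 18 CC chemokines 11 were lower, 5 at an unadjusted p under 0.05, and none was higher at that p. The list's median was -0.08 over all 18 and -1.21 over the 11 members above the olfactory receptor level.

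Complement and lysosomal genes had the same pattern. Of 17 complement genes 14 were lower, 3 at an unadjusted p under 0.05, with a median of -0.23, and C1q chains stand in both this list and the macrophage list. CFP, the stabiliser of the alternative pathway, was lower by 1.52 ± 0.62, C1QC by 1.20 ± 0.47 and C3, the central component, by 1.04 ± 0.73. Of 18 lysosomal enzymes 17 were lower, 2 at that p, with a median of -0.20. CTSS, the cathepsin of antigen-presenting cells, was lower by 0.56 ± 0.36, the cholesterol carrier NPC2 by 0.32 ± 0.15 and the hexosaminidase chain HEXA by 0.30 ± 0.17.

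Interferon-stimulated genes were lower as a list, and 1 MEKK1+/+ array stood out. Of 27 genes 26 were lower in MEKK1-/-, 10 at an unadjusted p under 0.05, with a median of -0.69. The list's mean was 8.13, 7.50, 8.22 and 9.36 in MEKK1+/+ replicates 1 to 4 and 7.34, 7.86, 7.47 and 7.49 in MEKK1-/-. Replicate 4, the highest in MEKK1+/+, was not the highest in macrophage markers, where replicate 1 was. It was, however, also the highest array in the CC chemokines (9.5), the CXC and other chemokines (9.43) and the NF-kB genes (9.16). The same held for inflammatory cytokines (8.46), complement genes (8.84) and antigen presentation genes (8.86). The promoters of 2 of these genes are shown, because they hold the element through which interferon acts on such genes. IFIT3 binds viral RNA complexes and GBP3 is an interferon-induced GTPase. The sequences are the 250 bases before the start of each gene, from RefSeq on GRCm38.p6, read 5′ to 3′ on the strand of the gene, chr19:34583279-34583528 on the plus strand for Ifit3 and chr3:142559794-142560043 on the plus strand for Gbp3. Capitals mark the interferon-stimulated response element, searched on both strands as TTTCNNTTTC, where neighbouring matches may overlap.
Ifit3: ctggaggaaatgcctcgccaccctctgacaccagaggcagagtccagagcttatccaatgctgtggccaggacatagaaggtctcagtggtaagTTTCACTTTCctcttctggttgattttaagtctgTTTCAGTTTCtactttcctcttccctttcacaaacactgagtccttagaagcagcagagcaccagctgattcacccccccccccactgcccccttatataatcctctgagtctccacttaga
Gbp3: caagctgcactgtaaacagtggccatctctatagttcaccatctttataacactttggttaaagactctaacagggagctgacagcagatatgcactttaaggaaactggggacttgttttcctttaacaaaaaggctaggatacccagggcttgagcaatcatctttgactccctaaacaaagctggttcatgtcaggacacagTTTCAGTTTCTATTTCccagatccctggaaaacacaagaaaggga

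Each promoter shown held 2 matches, and those of Gbp3 overlap. For Gbp3 2 promoters were at hand, and only 1 of them is shown. The element stood in 9 of the 21 promoters of the interferon list (42.9%), where 18 of 27 genes had a promoter in the table, and in 978 of 32851 mouse promoters (2.98%). Among the genes above the level that were higher without overlap, 224 matched a RefSeq symbol and 173 had a promoter, and the element stood in 1 of their 208 promoters (0.481%). Of the lower genes 157 matched and 124 had a promoter, with the element in 2 of 154 (1.30%). A match describes these letters and is not a measured binding site.

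IFIT3 read 9.34, 8.04, 9.85 and 12.90 in MEKK1+/+ and 7.41, 8.86, 7.99 and 8.06 in MEKK1-/-. Replicate 4 of MEKK1+/+ was thus far above every other array, and the difference was -1.95 ± 0.94 (adjusted p = 0.542). GBP3 read 9.55, 7.74, 9.39 and 11.60 against 7.31, 8.56, 7.63 and 7.76, a difference of -1.75 ± 0.64. USP18, which removes the ubiquitin-like modifier ISG15 from proteins, and OASL2, of the oligoadenylate synthetase family, were lower by 1.89 ± 0.71 and 1.70 ± 0.58. Antigen presentation genes, many of which interferon also induces, were lower in 14 of 17 cases, 3 at an unadjusted p under 0.05, with a median of -0.28. The immunoproteasome subunit PSMB9 was lower by 0.81 ± 0.27, H2-DMB1, which helps load class II molecules, by 0.61 ± 0.21, the class I molecule H2-T23 by 0.71 ± 0.35 and the peptide transporter chain TAP2 by 0.53 ± 0.27.

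Genes of the NF-kB pathway lay the same way. This pathway, on which several MAP3 kinases act, induces its own inhibitors and many chemokines. Of 21 subunits and regulators 20 were lower in MEKK1-/-, 5 at an unadjusted p under 0.05, with a median of -0.20. The regulators NFKBIZ, NFKBIA, TNFAIP3 and TNIP1 were lower by 1.12 ± 0.45, 1.03 ± 0.50, 0.86 ± 0.46 and 0.76 ± 0.33. NFKBIA read 10.56, 9, 11.05 and 11.63 in MEKK1+/+ and 9.56, 10.72, 9.02 and 8.83 in MEKK1-/-, with the arrays numbered 2 again on the other side. CXCL1, a neutrophil attractant that fibroblasts make, read 13.96, 9.44, 13.69 and 15.18 in MEKK1+/+ and 10.43, 13.76, 10.11 and 10.24 in MEKK1-/-, a difference of -1.93 ± 0.97 (adjusted p = 0.562).

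Promoters of CXCL1 and NFKBIA are shown as 2 genes of this pattern, beside that of POU6F1, which separated the groups on every array. They are the 250 bases before the start on GRCm38.p6, chr5:90890995-90891244 on the plus strand for Cxcl1, chr12:55492648-55492897 on the minus strand for Nfkbia and chr15:100599985-100600234 on the minus strand for Pou6f1, 5′ to 3′ on the strand of the gene. Capitals mark matches to the kappa B consensus, the site that NF-kB binds, which is nearly its own reverse complement, so that 1 stretch can match on both strands.
Cxcl1: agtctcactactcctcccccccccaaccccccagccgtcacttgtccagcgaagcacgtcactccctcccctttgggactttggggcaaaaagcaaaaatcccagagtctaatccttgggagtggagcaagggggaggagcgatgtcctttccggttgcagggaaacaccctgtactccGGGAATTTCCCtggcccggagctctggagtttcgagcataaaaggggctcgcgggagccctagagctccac
Nfkbia: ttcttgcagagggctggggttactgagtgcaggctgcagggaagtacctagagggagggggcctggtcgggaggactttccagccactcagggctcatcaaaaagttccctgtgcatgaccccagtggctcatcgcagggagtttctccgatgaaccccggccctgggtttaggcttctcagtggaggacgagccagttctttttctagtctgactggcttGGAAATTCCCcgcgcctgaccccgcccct
Pou6f1: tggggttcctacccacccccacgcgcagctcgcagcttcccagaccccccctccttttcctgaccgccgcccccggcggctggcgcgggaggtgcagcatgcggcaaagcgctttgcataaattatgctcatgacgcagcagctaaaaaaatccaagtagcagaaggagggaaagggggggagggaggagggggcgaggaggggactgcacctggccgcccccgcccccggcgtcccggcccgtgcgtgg

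The kappa B consensus stood in 2382 of 32851 mouse promoters (7.25%). It stood in 9 of the 23 promoters of the NF-kB list (39.1%), in 4 of 13 of the CXC and other chemokines (30.8%) and in 3 of 15 of the CC chemokines (20%). The interferon list held it in 4 of 21 promoters (19%) and the macrophage markers in 3 of 19 (15.8%). The 208 and 154 promoters at hand for the higher and lower genes without overlap held it in 4.81% and 5.84% of cases. In the Pou6f1 window neither motif was found.

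Secreted inflammatory factors beyond the CC chemokines were mixed. Of 16 CXC and other chemokines 10 were lower, 2 at an unadjusted p under 0.05, with a median of -0.04 that turned to 0.03 on the deposited scale. CXCL4 (now Pf4) was lower by 1.57 ± 0.81 and CXCL16, which macrophages and fibroblasts can shed, by 1.02 ± 0.47, while CX3CL1, a membrane-bound chemokine, was higher by 0.53 ± 0.28. Of 20 inflammatory cytokines 13 were lower, 4 at that p. IL6, a cytokine that fibroblasts secrete when stimulated, read 10.79, 8.29, 9.66 and 11.69 in MEKK1+/+ and 7.78, 10.36, 8.67 and 8.77 in MEKK1-/-. IL1RN, the inhibitor of interleukin 1, was lower by 0.70 ± 0.24 and IL11, a fibroblast cytokine, was higher by 0.61 ± 0.76.

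The MAP kinase pathway itself showed small differences in RNA. Of 15 MAP3 kinases 12 were higher, with a median of 0.07 that turned to -0.01 on the deposited scale. MAP3K1 was the only one higher at an unadjusted p under 0.05 and MAP3K8, which acts downstream of Toll-like receptors in macrophages, the only one lower, by 0.72 ± 0.28. Of 18 MAP2 kinases and MAP kinases 9 were higher and 9 lower, and none had an unadjusted p under 0.05. MAP2K2, an activator of ERK, differed by 0.23 ± 0.11, or -0.05 on the deposited scale, and MAPK9, which encodes a JNK, by -0.18 ± 0.09. Of 15 AP-1 factors 5 were higher and 10 lower. The only one at an unadjusted p under 0.05 was BATF, a factor of immune cells named after its values were seen, lower by 0.29 ± 0.10 and above the olfactory receptor level on 2 MEKK1+/+ arrays and no MEKK1-/- array. FOS and JUN differed by -0.28 ± 0.34 and 0.06 ± 0.23, and JUN turned to -0.11 on the deposited scale. Of 9 MAP kinase phosphatases DUSP16, which acts on JNK, was the only one at an unadjusted p under 0.05, lower by 0.21 ± 0.09.

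Genes of cell division lay higher in MEKK1-/-. Of 28 cell cycle and DNA replication genes 26 were higher, 6 at an unadjusted p under 0.05, with a median of 0.27, or 0.09 on the deposited scale. The list's mean was 8.65, 8.96, 8.58 and 8.55 in MEKK1+/+ and 9.35, 8.54, 8.90 and 8.92 in MEKK1-/-, so MEKK1-/- replicate 1, which held the epithelial RNA, was the highest and the arrays numbered 2 again lay on the other side. CDC20, an activator of the anaphase-promoting complex, was higher by 0.70 ± 0.27, the topoisomerase TOP2A by 0.56 ± 0.29, and the replication licensing factors CDT1 and MCM2 by 0.48 ± 0.22 and 0.48 ± 0.24. Of 16 genes of growth arrest and p53 targets 9 were lower, 2 at that p. GADD45A, a gene of growth arrest, was lower by 0.54 ± 0.16.

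Contractile genes were higher in 15 of 19 cases, 3 at an unadjusted p under 0.05, with a median of 0.23, or 0.03 on the deposited scale. ACTG2, a smooth muscle actin, was higher by 0.59 ± 0.34, the actin-binding CNN2 by 0.45 ± 0.17, and the transcription factor SRF by 0.43 ± 0.18. ACTN1, an actin crosslinker, read 13.77 to 13.98 in MEKK1+/+ and 14.02 to 14.51 in MEKK1-/-, so its groups did not overlap. Glycolysis and hypoxia genes were lower in 17 of 20 cases, but only 1 had an unadjusted p under 0.05, and the median was -0.19. The list's mean was 10.71, 10.37, 10.63 and 10.78 in MEKK1+/+ and 9.97, 10.73, 10.49 and 10.48 in MEKK1-/-. Only MEKK1-/- replicate 1 thus lay outside the range of MEKK1+/+. ADM, a peptide hormone induced by hypoxia, was lower by 0.74 ± 0.42 and PDK1, which restrains pyruvate oxidation, by 0.59 ± 0.28, with MEKK1-/- replicate 1 at 8.00 against 9.47 to 9.82 in the others.

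**Figure D4:**
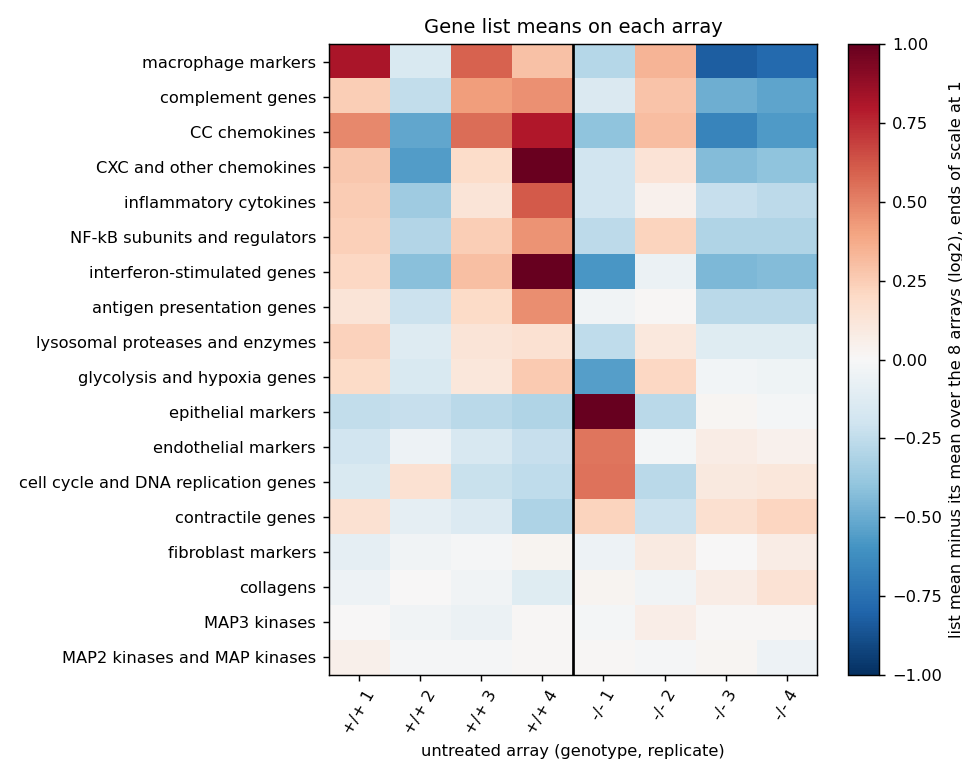
Mean log2 intensity of 18 gene lists on each untreated array, as the difference from the list's mean over the 8 arrays, with red above and blue below that mean and colours capped at 1. In the macrophage, chemokine and NF-kB lists replicate 2 of each genotype has the colour of the other genotype. MEKK1-/- replicate 1 stands out in the epithelial, endothelial, cell cycle and glycolysis lists.

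The matrix of the fibroblasts was little different. Of 25 collagens 15 were higher and 10 lower, with a median of 0.04. COL12A1, a collagen of fibril surfaces, was higher by 0.55 ± 0.24, while COL7A1 and COL5A3 were higher by 0.55 ± 0.30 and 0.50 ± 0.23, both highest on MEKK1-/- replicate 1. Of 21 matrix metalloproteinases and inhibitors none had an unadjusted p under 0.05. MMP12, the macrophage elastase, differed by -1.27 ± 0.70 and MMP3, the stromelysin of fibroblasts, by -0.92 ± 0.76. Of 20 proteoglycan and hyaluronan genes 10 were higher and 10 lower. The proteoglycan PRELP differed by -1.15 ± 0.56. The 26 integrin and focal adhesion genes had a median of 0.06, or 0 on the deposited scale, with ITGA5, a fibronectin receptor chain, higher by 0.45 ± 0.19.

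Marker means were entered as covariates to measure how far these differences moved with cell mixture. The macrophage mean of each array, or the epithelial mean, or both, was added to the fit over all 16 arrays. The marker genes enter their own covariate, so their values in these fits are a description. With the macrophage mean, the genes at an unadjusted p under 0.05 numbered 443 higher (2.44%) and 414 lower (2.28%). With the epithelial mean the numbers were 666 (3.67%) and 552 (3.04%), and with both means 417 (2.30%) and 352 (1.94%). The fit without covariates called no gene, that with the epithelial mean called POU6F1 and ZFP52 at an adjusted p under 0.05, and that with both means called POU6F1. A covariate measured on the same arrays also takes up differences that accompany macrophage RNA for another reason, which was not tested.

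The differences of CCL3 and CCL4 mostly went with the macrophage mean, and that of CCL5 did so only in part. With this mean the difference of CCL3 was -0.36 in place of -2.54, that of CCL4 -0.28, that of CCL5 -0.88, and that of CCL6 turned to 0.50. The medians of complement and lysosomal genes went to 0.02 and -0.04, that of NF-kB genes to -0.09 and that of antigen presentation genes to -0.12. CXCL1 went to -0.29. With both means the cell cycle median went from 0.27 to -0.13 and the contractile median from 0.23 to 0.01. The glycolysis and hypoxia median went from -0.19 to 0.05 in that fit.

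The interferon-stimulated genes moved less. Their median was -0.58 with the macrophage mean and -0.40 with both means, with 26 and 25 of 27 genes still lower, though only 2 and then 0 had an unadjusted p under 0.05. IFIT3 was at -1.74 and -1.08 and GBP3 at -1.45 and -0.98. The endothelial median was 0.24 with the macrophage mean and 0.07 with both. LTC4S was at -0.73 and -0.60, TNFAIP8 at -0.78 and -0.65, and MAP3K1 at 0.46 and 0.49. PTGS1, a cyclooxygenase whose groups did not overlap, kept its difference of 0.38 in both fits. IGF2 was at 0.93 and 1.12.

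Among the 241 genes above the level that were higher without overlap, 241 stayed higher with the macrophage mean and 238 with both means, and their median difference went from 0.27 to 0.22 and 0.19. Of these 241 genes 179 had an unadjusted p under 0.05 in the fit without covariates, 83 with the macrophage mean and 59 with both. Among the 159 lower genes, 157 and 156 stayed lower and the median went from -0.26 to -0.22 and -0.18, with 102, 48 and 23 genes at that p. These genes were chosen for their separation on the same arrays, so the counts are a description of sizes.

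**Figure D5:**
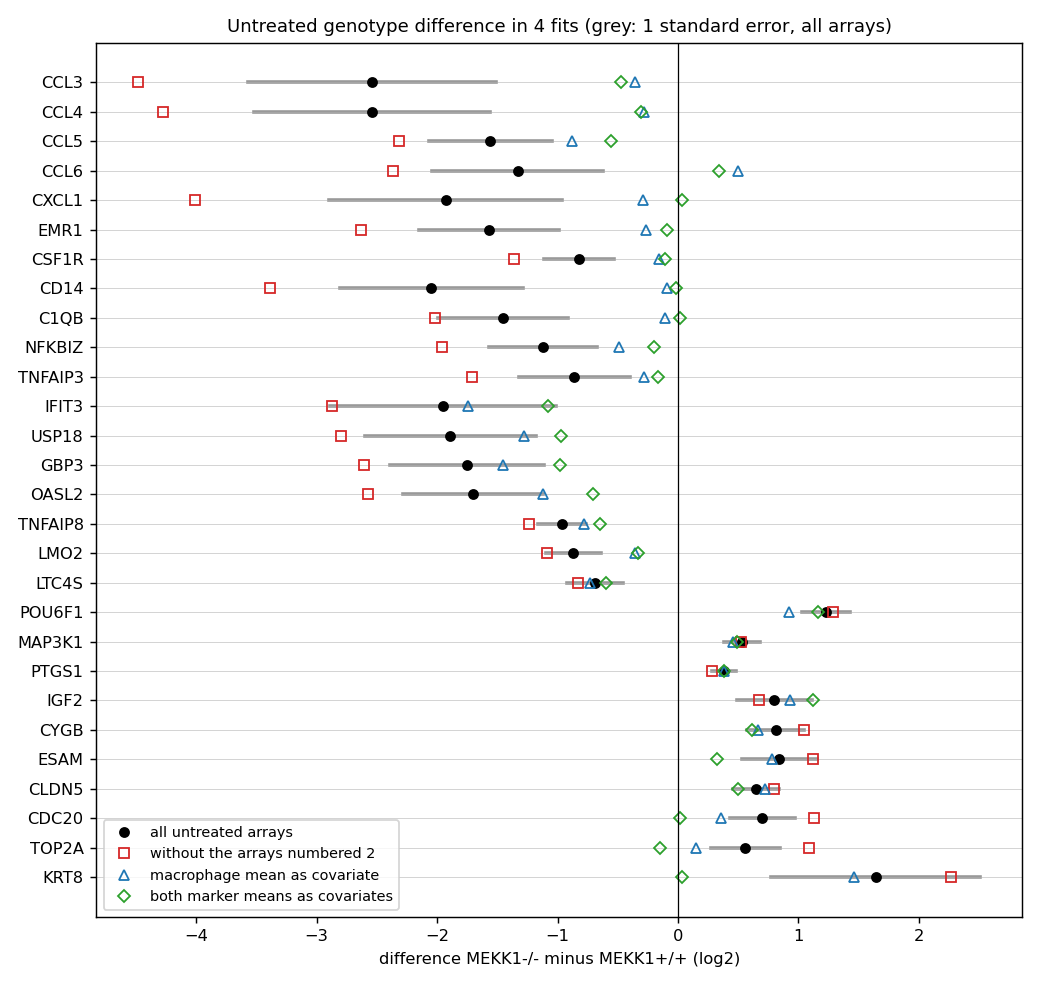
Difference of MEKK1-/- minus MEKK1+/+ untreated cultures on the log2 scale for 28 genes in 4 fits, with grey bars of 1 standard error about the fit over all arrays. CCL3, CCL4 and the macrophage markers, several of which are part of the covariate themselves, move to near 0 with the macrophage mean and away from 0 without the arrays numbered 2, while POU6F1, MAP3K1 and PTGS1 keep their side in all 4 fits.

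Without both arrays numbered 2 the comparison gave calls. With 3 arrays a group, 46 genes were higher (0.254%) and 127 lower (0.7%) at an adjusted p under 0.05. All 173 had the same direction with all 8 arrays, which include the arrays behind the calls. Only 15 of the 173 genes separated the groups with all arrays. Since the 2 arrays were chosen from these values, the calls have no independent support. The genes with the smallest adjusted p, named after their values were seen, were CXCL1, lower by 4.01 ± 0.30, CCL2, a monocyte attractant, lower by 2.47 ± 0.24, the adhesion molecule ICAM1, lower by 1.55 ± 0.16, and CH25H, which makes 25-hydroxycholesterol, lower by 2.79 ± 0.29. TGFB3, a ligand of the TGF-beta family, was higher by 1.26 ± 0.21. CCL3, CCL4 and CCL5 were lower by 4.48, 4.28 and 2.32, all past an adjusted p of 0.05, and POU6F1 was higher by 1.29 (adjusted p = 0.0313). In this fit the median of the macrophage list was -1.21, that of the NF-kB list -0.43 and that of the interferon list -1. The cell cycle median was 0.46. With the macrophage mean added 6 genes were called, 3 of them among the 173.

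The cultures given CM repeat the genotype comparison on other arrays, but they came from the same 3 mice per genotype. They are therefore independent neither in animals nor in cell mixture. Within a genotype, same-numbered arrays of the 2 media differed by at most 0.16 in the macrophage mean and in the epithelial mean. Across 18132 genes the genotype differences in the 2 media correlated at r = 0.735, and at 0.787 over the 7833 genes above the level, where genes are not independent replicates. Of the 241 higher genes 219 were higher with CM (90.9%), against 74.6% of the 4251 genes above the level with a higher untreated mean. Of the 159 lower genes 133 were lower with CM (83.6%), against 73% of 3582. With CM the groups of the 7833 genes did not overlap in 220 higher (2.81%) and 134 lower ones (1.71%), and these held 25 of the 241 and 14 of the 159.

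POU6F1 was the gene called with CM, 1 of 18132 (0.00552%). It read 6.58, 6.57, 6.51 and 6.79 in MEKK1+/+ and 7.74, 8.08, 8.74 and 8.68 in MEKK1-/-, a difference of measured means of 1.70 ± 0.20 (adjusted p = 0.0101), or at least 2.12-fold with MEKK1+/+ at the olfactory receptor level. MAP3K1 was higher by 0.33 ± 0.15 there, and its groups overlapped. The genes that separated the groups the same way in both media, 25 higher and 14 lower, of which a few are named after their values were seen, included ESAM, CLDN5 and ACVRL1 of endothelium, with 0.64, 0.72 and 0.73 in CM, PCOLCE2 with 0.76, AIF1 and CX3CR1 of macrophages with -0.49 and -0.35, and TGFBR2, a receptor for TGF-beta, with -0.43 untreated and -0.39 in CM. No gene was called for a difference between the media in the genotype effect (limma interaction term), and 473 had an unadjusted p under 0.05 (2.61%). That fit takes the arrays of the media as unpaired. With each same-numbered pair of arrays of a genotype as a block, a fit added after the data were seen, 0 genes were called and 557 had an unadjusted p under 0.05.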

How the data were processed

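RNA of 16 cultures was hybridised to Illumina mouse bead arrays. The authors deposited 1 table of linear intensity values, 1 column per sample and 1 row per gene symbol, already normalized by the array facility in a way not given in the sources used here. The arrays give no depth, so the number of arrays limits the precision. From the deposited intensity values log2 values were taken and quantile normalized over all 16 arrays. Each gene was then fitted with limma 3.58.1 in R 4.3.3 over 4 groups (12 residual degrees of freedom), with empirical Bayes variances and Benjamini-Hochberg adjustment over all 18132 genes at 0.05. Single genes were also compared by an exact 2-sided permutation test over 70 regroupings. The fit was tested on simulated data. The study's own test was a z-test on z-scores, which is among the alternatives together with other scalings, a pseudocount of 16, array weights, replicate blocks, left-out arrays and marker means as covariates. Groups were taken from the sample titles. Untreated samples of the 2 genotypes numbered alike did not deviate together (correlations from -0.575 to -0.099), so the numbers were not used as pairs between genotypes. Within a genotype, untreated and CM samples numbered alike correlated at -0.038 to 0.576. The main fit takes all 16 arrays as independent, so its 12 degrees of freedom may be too many.

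The comparison, the gene lists and the cell type markers were chosen with earlier results of these data known. Genes named are MAP3K1, CCL3 to CCL6, the 12 largest differences in each direction among genes above the olfactory receptor level whose groups do not overlap, up to 4 members of each list with the largest differences, the defining cell type markers, and others said to be chosen after their values were seen. Gene symbols are those of the table, and 14305 of them matched the RefSeq table of GRCm38.p6 by current symbol and 2904 by an older one. A few genes that this rule names are not reported here.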

Additional observations from a re-analysis of the deposited data

Results flagged for a closer look

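In 27 of 258 groups of 4 arrays tested, over the genes named and 4 marker means, 1 array lay far from the other 3 (Dixon's criterion), where chance flags about 1 in 20 groups. Most are arrays numbered 2, which were singled out above. In MEKK1-/- replicate 2 this held for CXCL1 at 13.76 (others 10.11 to 10.43), CH25H at 12.24, H2-T23 at 10.28, TNIP1 at 9.57, TNFAIP3 at 9.28, EMR1 at 9.27 (others 7.10 to 7.4), USP18 at 8.87, PLEK at 8.51, MAP3K8 at 8.08 and FYB at 7.80, each above the other 3 cultures of its group. In MEKK1+/+ replicate 2 it held for CD14 at 9.53 (others 11.88 to 12.05), CFP at 10.58, FGF7 at 11.29 and HEXA at 11.01, below the others, and for MCM2 at 9.51, above them.

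MEKK1-/- replicate 1, the culture with the most epithelial RNA, stood out in the mean of endothelial markers at 7.94 (others 7.39 to 7.48), in ESAM at 9.20 and ESM1 at 8.43, above its group, and in IGFBP5 at 10.74, MXRA8 at 9.77, NOPE at 8.00 and ACVRL1 at 7.50, below it. In MEKK1+/+ replicate 1 lay above its group for PCYOX1 at 12.09 and ITGA5 at 11.48, replicate 3 below it for PCOLCE2 at 8.45, and replicate 4 above it for AIF1 at 7.79 and below it for MAPK9 at 9.76.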

How the results depend on the processing

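The comparison gave 0 genes at an adjusted p under 0.05, 1680 at an unadjusted p under 0.05 and 835 whose groups did not overlap. The values as deposited gave 811 and 149 for the last 2 counts, arrays set to 1 common median 3170 and 1558, only genes above the olfactory receptor level 799 and 400, and the level of the highest olfactory receptor row 341 genes without overlap. Array weights called 1 gene, and the z-test on z-scores 817, with 3153 at an unadjusted p under 0.05. Leaving out 1 array gave 0 to 1 called genes, 1232 to 2149 at an unadjusted p under 0.05 and 1224 to 2070 without overlap, the highest without MEKK1-/- replicate 2 (AMIGO2 called) and next without MEKK1+/+ replicate 2 (2088 and 2009). Leaving out both gave 173 called and 3739 without overlap, and 6 called with the macrophage mean, an alternative added after the data were seen. As covariates the macrophage mean gave 857 genes at an unadjusted p under 0.05, the epithelial mean 2 called genes, and both means 1 called gene and 769. The replicate block called 0 genes, with 1699 at an unadjusted p under 0.05, and the block within each genotype moved the genes at that p for the interaction from 473 to 557, with 0 called. Of the gene and setting pairs computed for the named genes, 2634 kept their direction and side of the threshold, 42 passed it, 36 of these without both arrays numbered 2, and 71 turned direction. With the deposited values COL1A2, JUN, MAP2K2 and THY1 turned to -0.19, -0.11, -0.05 and -0.01, and with 1 common median to -0.21, -0.13, -0.07 and -0.03. Z-scores put COL1A1 at 0.19 and JUN at -0.01, and array weights put them at 0.02 and -0.06. With 1 array left out COL1A1 ran from -0.13 to 0.09, COL1A2 from -0.03 to 0.23, JUN from -0.06 to 0.17 and IL11 from -0.01 to 0.99. With the macrophage mean the values were 0.50 for CCL6 and FOS, 0.09 for ADM, 0.01 for CD68, 0.07 for CFP, -0.03 for COL1A2, 0.34 for CTSS, 0.52 for CXCL4 and MMP3, 0.51 for LYZ2, -0.02 for MYLPF, 0.06 for PLEK and 0.21 for TYROBP. With the epithelial mean they were 0 for COL1A1 and -0.36 for IL11. With both means they were 0.34 for CCL6 and CXCL4, 0.49 for ADM, 0.02 for C1QB, CFP and HEXA, 0.04 for C1QC, 0.38 for C3, 0.06 for CCL2, -0.07 for CDT1 and COL7A1, 0 for COL1A1, 0.23 for CTSS, 0.03 for CXCL1, 0.05 for FGF7, 0.25 for FIGF, 0.69 for FOS, -0.05 for HEY1, 0.07 for IL6, 0.45 for LYZ2, -0.11 for MCM2, 0.35 for MMP3, -0.14 for MYLPF, 0.19 for PLEK, 0.21 for PRELP, -0.15 for TOP2A and 0.11 for TYROBP. Without both arrays numbered 2 and with the macrophage mean they were 0.45 for CCL6, 0.34 for C1QB, 0.30 for C1QC, 0.41 for CD68 and FOS, 0.03 for CFP, 0.38 for CTSS, 0.37 for CXCL4, 0.65 for LYZ2, 0.28 for MMP12 and 0.40 for TYROBP. Which of these settings is closest to the cells was not tested.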

Other observations

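Other gene lists are set here beside the shares of all genes at an unadjusted p under 0.05, 4.92% higher and 4.35% lower. Of 26 TGF-beta and BMP pathway genes 16 were higher in MEKK1-/-, 3 at that p, and 1 of the others was lower at it, with a median of 0.06 that turned to -0.03 on the deposited scale. TGFB3, a TGF-beta ligand, read 9.74, 10.11, 9.78 and 9.55 in MEKK1+/+ and 11.61, 9.51, 10.59 and 10.65 in MEKK1-/-. TGFBR2, the type II receptor for that family, read 12.15, 12.32, 12.39 and 12.03 against 11.65, 12, 11.66 and 11.85, so its groups did not overlap. Of 25 stromal growth factors 17 were lower, with a median of -0.10. FGF7, which fibroblasts supply to epithelium, was lower by 0.54 ± 0.28 and FIGF (now Vegfd) by 0.68 ± 0.37. Among 8 IGF binding proteins 2 were higher at that p, with a median of 0.13 that turned to -0.12 on the deposited scale. IGFBP4 was higher by 0.54 ± 0.24 and IGFBP5 lower by 0.64 ± 0.33, with MEKK1-/- replicate 1 at 10.74 and the others at 12.26 to 12.34.

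Of 26 Wnt pathway genes 14 were higher, and DKK3, a secreted protein of that pathway's Dickkopf family, was lower by 0.57 ± 0.20. Of 17 cholesterol and fatty acid synthesis genes 13 were lower, among them SC5D, an enzyme of cholesterol synthesis, by 0.47 ± 0.18. Among NRF2 targets the thioredoxin reductase TXNRD1 was higher by 0.35 ± 0.16, and among heat shock genes HSPB1 was higher by 0.53 ± 0.24. The heat shock list had a median of 0.06 that turned to -0.13 on the deposited scale. Of 13 prostaglandin genes 2 were higher at that p, with a median of 0.04 that turned to -0.01 on the deposited scale. PTGS1, the cyclooxygenase of that list, read 7.93, 7.69, 7.90 and 8.20 in MEKK1+/+ and 8.21, 8.39, 8.27 and 8.38 in MEKK1-/-, so its groups just failed to overlap. Of 28 HOX genes 14 were higher and 14 lower, 3 each at that p, and HOXB7 was lower by 0.47 ± 0.18. In the plasminogen system F3, the initiator of coagulation, was lower by 0.28 ± 0.11, with MEKK1+/+ at 7.27 to 7.42. The median of that list was 0.07 and turned to -0.03 on the deposited scale. None of 17 genes of the unfolded protein and amino acid stress response and none of 21 matricellular and elastic fibre genes had an unadjusted p under 0.05.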
